A study of Homo sapiens with 4 samples.

Results

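The 10 genes EZH1, EZH2, EED, SUZ12, BMI1, CBX2, CBX7, CBX8, RING1 and RNF2 encode core components of Polycomb repressive complex 1 and complex 2 (PRC1 and PRC2), and their RNA was measured by sequencing in 4 human leukemia cell lines. They were chosen by name, and all 10 were found among the 23368 entries of the gene count table. All 4 lines derive from precursor-B acute lymphoblastic leukemia. RS4;11 and SEM, called the translocated lines here, carry t(4;11), in which MLL (KMT2A), a gene for a histone methyltransferase, is fused to AFF1, while NALM6 and REH, the non-translocated lines, lack it. Each line was cultured below confluence in RPMI with bovine serum and gave 1 library, so the groups hold n = 2 lines each and the p-values measure the spread between lines of separate leukemias. Levels are given as CPM, the HTSeq count of a gene per 1000000 gene counts of its library. Paired values name RS4;11 before SEM and NALM6 before REH. The library sums lay between 33620574 (SEM) and 84212986 (REH). No member had fewer than 111 counts in any library, and all 10 passed the filter on low counts.

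PRC2 is the enzyme complex that methylates lysine 27 of histone H3, a mark of silenced genes. EZH2 or its relative EZH1 carries the catalytic site, while EED reads the finished mark and SUZ12 holds the complex together. PRC1 binds that mark through a chromobox protein (CBX2, CBX7 or CBX8 among these members) and ubiquitinates histone H2A through RING1 or RNF2, each paired with a PCGF protein such as BMI1. Both complexes are known regulators of HOX genes and of the CDKN2A locus in blood cells, and MLL acts against Polycomb repression at HOX genes.

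All 11 precursor-B markers (PAX5, CD79A, EBF1 and others) had counts in all 4 lines, and 8 of them reached 1 CPM in all 4, with a summed level of 2374 and 1214 CPM in the translocated lines and of 4871 and 8632 CPM in the non-translocated lines. Of that list, MME (CD10) was at 1.02 and 0.476 CPM in the translocated lines, against 975 and 1031 CPM in the non-translocated lines. DNTT was at 12.9 and 0.744 CPM in the translocated lines, against 759 and 1913 CPM in the non-translocated lines, RAG1 was at 1.84 CPM in SEM, and VPREB1 was at 0.226 CPM in REH. Summed T and NK cell markers were between 0.154 and 4.91 CPM, with CD3D, CD3E and CD3G at 0 counts in all 4 lines. Summed myeloid markers were between 4.45 and 35.4 CPM, and the highest of these sums, in REH, held 34.2 CPM of MPO. In the other lines MPO was between 0.134 and 0.347 CPM. Summed erythroid and megakaryocyte markers were between 0.780 and 6.82 CPM. Summed stromal, epithelial and endothelial markers were between 0.446 and 19.3 CPM. The highest of these sums, in SEM, held 15.2 CPM of the endothelial marker PECAM1. Of 16 cell cycle genes (MKI67, PCNA, the MCM helicase subunits and others), 3 were higher (against 19.0% of all genes) and 3 lower (against 28.3%) in both translocated lines than in both non-translocated lines, and the 16 summed to 7655 and 6722 CPM in the translocated lines against 7177 and 7192 CPM in the non-translocated lines. E2F1 and MCM4 were named after their values were seen. E2F1 was among the lower ones, with 148 and 86.6 CPM in the translocated lines against 191 and 234 CPM in the non-translocated lines. MCM4 was among the higher ones, with 901 and 791 CPM in the translocated lines against 534 and 520 CPM in the non-translocated lines. The part of these levels in the results below was not tested.

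The design sets lines with t(4;11) against lines without it. Over the 10 members the log2 fold changes, translocated over non-translocated, ran from -1.29 (CBX7) to 0.62 (EED). Their median size was 0.49, beside 0.46 over all 13844 genes tested, and 1 member reached a size of 1, against 25.1% of all genes. In the PRC2 core EED and SUZ12 were higher in both translocated lines and EZH1 was lower. In PRC1 the 3 chromobox genes and RING1 were lower in both. EZH2, BMI1 and RNF2 overlapped between the groups. In bulk RNA, fewer cells that express a gene and less of its RNA per cell cannot be told apart.

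EdgeR's quasi-likelihood test called 0 members at an adjusted p under 0.05, and 0% of all genes. At an unadjusted p under 0.05 it gave 2 members, EED (higher) and EZH1 (lower), where 12.0% of all genes had such a p (6.18% higher and 5.87% lower). DESeq2 on the same counts called the same 2 members (10.1% of all genes with an adjusted p). EdgeR's exact test (3.19% of all genes) and limma voom (0% of all genes) called 0 members. The authors' deposited DESeq table (1.56% of genes called) and their deposited Cuffdiff table (2.34%) called 0 members. By levels alone, 7 of the 10 members did not overlap between the groups, against 47.3% of all genes. Of these, 5 were lower, against 28.3%, and 2 were higher, against 19.0%. Scaling by TMM in place of library sums moved the shares over all genes to 23.4% lower and 24.2% higher (59.9% of the genes that did not overlap were lower by library sums, and 49.2% by TMM), and left each of the 10 members in its class.

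**Figure D1:**
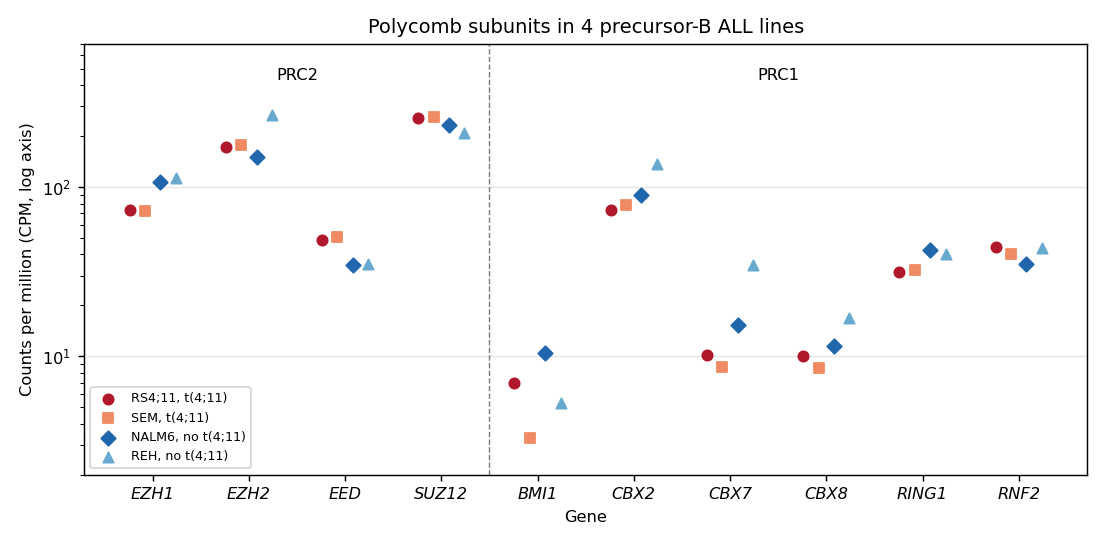
Level of each Polycomb subunit in each line, in CPM on a log axis, with 1 point per library and the translocated lines RS4;11 and SEM to the left. EED and SUZ12 were higher in both translocated lines than in both non-translocated lines, and EZH1, CBX2, CBX7, CBX8 and RING1 were lower. REH stood highest for EZH1, EZH2, CBX2, CBX7 and CBX8. Levels of different genes are not scaled by length.

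Of the catalytic subunits of PRC2, EZH1, which keeps up H3K27 methylation mainly in resting cells, lies on chromosome 17 (40852293 to 40897071, hg19). RS4;11 held 72.9 CPM and SEM 72.4 CPM of it, against 107 CPM for NALM6 and 113 CPM for REH. The groups did not overlap, and the lines of each group stood close together (72.6 ± 0.301 CPM in translocated lines and 109.7 ± 4.51 CPM in the others, SD, n = 2 each). The log2 fold change was -0.49 (SE 0.16), with an edgeR adjusted p of 0.401. DESeq2 gave an adjusted p of 0.0267, and over all alternatives tried the adjusted p ranged from 0.0267 to 1.

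EZH2, the catalytic subunit of dividing cells and the target of tazemetostat, lies on chromosome 7 (148504464 to 148581441). Its level was 172 CPM for RS4;11 and 178 CPM for SEM, and 151 CPM for NALM6 and 267 CPM for REH. The translocated lines fell between the other lines. Its log2 fold change was -0.16, with an SE of 0.34 and an edgeR adjusted p of 0.881, and turned to 0.31 without REH, so its sign rested on that line.

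The promoters of EZH1, EZH2 and EED are shown because EZH1 and EED were the members with the smallest p-values and EZH2 is the partner of EZH1 in the ratio below. Each window holds 250 bases before and 50 after a RefSeq gene start (GRCh38.p14, a later build than the hg19 of the count data), written 5′ to 3′ on the strand of the gene, and EZH2 has a pair of starts. Capitals mark the letters TTTGGCG, a form of the binding sequence of the cell cycle factors of the E2F family.
EZH1 (chr17:42744991-42745290, minus strand): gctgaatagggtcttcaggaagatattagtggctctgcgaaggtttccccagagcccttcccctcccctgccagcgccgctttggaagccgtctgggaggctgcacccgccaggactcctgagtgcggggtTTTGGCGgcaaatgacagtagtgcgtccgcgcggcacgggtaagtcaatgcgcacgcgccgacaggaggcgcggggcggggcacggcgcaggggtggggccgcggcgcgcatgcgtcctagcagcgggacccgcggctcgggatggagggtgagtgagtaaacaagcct
EZH2, upstream start (chr7:148884242-148884541, minus strand): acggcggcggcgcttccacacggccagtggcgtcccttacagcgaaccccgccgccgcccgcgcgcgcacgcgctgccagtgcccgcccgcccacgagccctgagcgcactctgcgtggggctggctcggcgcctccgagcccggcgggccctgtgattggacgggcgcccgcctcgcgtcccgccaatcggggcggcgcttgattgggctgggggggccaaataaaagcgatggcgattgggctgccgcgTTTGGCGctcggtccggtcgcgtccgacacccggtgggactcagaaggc
EZH2, downstream start (chr7:148883436-148883735, minus strand): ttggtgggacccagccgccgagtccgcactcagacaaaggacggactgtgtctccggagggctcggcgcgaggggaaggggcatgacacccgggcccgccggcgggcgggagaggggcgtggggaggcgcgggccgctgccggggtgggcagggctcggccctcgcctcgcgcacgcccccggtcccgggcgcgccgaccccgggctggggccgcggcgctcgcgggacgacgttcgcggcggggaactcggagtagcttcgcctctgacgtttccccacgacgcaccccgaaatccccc
EED (chr11:86244503-86244802, plus strand): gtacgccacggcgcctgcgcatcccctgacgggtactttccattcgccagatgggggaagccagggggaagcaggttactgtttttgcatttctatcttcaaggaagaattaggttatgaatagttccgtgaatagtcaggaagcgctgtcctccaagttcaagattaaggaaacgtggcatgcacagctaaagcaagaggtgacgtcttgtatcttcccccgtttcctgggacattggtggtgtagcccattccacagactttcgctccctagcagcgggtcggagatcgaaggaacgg
RefSeq windows were at hand for 8 of the 10 members, 10 windows in all. TTTCGCG or TTTGGCG, on either strand, stood in 2 of the 10, those of EZH1 and of the upstream EZH2 start, and in 3.19% of all 35116 windows. The ETS letters CCGGAAG stood in 0 of the 10 and in 10.3% of all windows, and the E-box CACGTG in 1 of the 10 (BMI1) and in 7.26% of all. CpG dinucleotides numbered 16 in the EED window and between 30 and 65 in the other 9 windows, against a median of 14 over all windows. These matches are descriptions of letters, and binding was not measured.

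EED, the subunit that recognises methylated H3K27, lies on chromosome 11 (85955806 to 85989785, hg19). RS4;11 reached 49.0 CPM and SEM 50.7 CPM, while NALM6 stood at 34.8 CPM and REH at 35.03 CPM. Both translocated lines stood above both non-translocated lines, and the lines of a group lay close together (RS4;11 at 0.965 of SEM, and REH at 1.01 of NALM6). The log2 fold change was 0.62 (SE 0.19), or 1.53-fold, with an edgeR adjusted p of 0.393 and an unadjusted p of 0.0352. The adjusted p was 0.0127 in DESeq2 and ranged from 0.0127 to 0.972 over the alternatives.

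SUZ12, the scaffold of PRC2, lies on chromosome 17 (30264044 to 30328057). Its level was 254 CPM for RS4;11 and 260.1 CPM for SEM, and 233 CPM for NALM6 and 208 CPM for REH. The groups did not overlap, but the gap between SUZ12 in RS4;11 and in NALM6 was smaller than the distance between NALM6 and REH. The log2 fold change was 0.32, with an SE of 0.15 and an edgeR adjusted p of 0.501. A transcribed pseudogene copy of SUZ12 on the same chromosome, listed as SUZ12P, had 5.22 and 3.69 CPM in the translocated lines against 8.41 and 8.15 CPM in the non-translocated lines. Reads shared by the near-identical copies cannot be placed, so the split between them is uncertain.

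Of the chromobox subunits of PRC1, which bind methylated H3K27, the members CBX2, CBX7 and CBX8 were lower in both translocated lines. CBX6, another chromobox gene, overlapped between the groups, with 31.7 and 39.9 CPM in the translocated lines against 38.2 and 58.9 CPM in the non-translocated lines. CBX7, on chromosome 22 (39526779 to 39548538), had the largest log2 fold change in size of the 10 members. RS4;11 held 10.3 CPM and SEM 8.69 CPM, while NALM6 held 15.2 CPM and REH 34.6 CPM. The groups did not overlap, and REH stood well above NALM6 (2.27-fold), while RS4;11 and SEM differed 1.18-fold. The log2 fold change was -1.29, with an SE of 0.55 and an edgeR adjusted p of 0.468, and became -0.59 without REH. In the GENCODE v29 annotation of GRCh38, an antisense gene, AL031846.2, shares exonic bases with CBX7. The library kit does not mark strand, so reads of the pair cannot be told apart.

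CBX2 and CBX8 are neighbours on the long arm of chromosome 17 (77751977 to 77761449 and 77768176 to 77770915). CBX2 was at 73.0 CPM for RS4;11 and 78.8 CPM for SEM, against 89.8 CPM for NALM6 and 138 CPM for REH. CBX8 was at 10.1 CPM for RS4;11 and 8.51 CPM for SEM, against 11.6 CPM for NALM6 and 16.8 CPM for REH. For both genes REH was the highest line, and NALM6 stood a short way above the translocated lines. The log2 fold change was -0.48 (SE 0.28, edgeR adjusted p = 0.558) for CBX2 and -0.51 (SE 0.44, edgeR adjusted p = 0.683) for CBX8. Without REH these became -0.15 and -0.22, and without NALM6 -0.76 and -0.75.

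The RING-type ubiquitin ligases of PRC1 had log2 fold changes of opposite sign. RING1 was at 31.7 CPM for RS4;11 and 32.6 CPM for SEM, against 42.3 CPM for NALM6 and 40.1 CPM for REH. RNF2, which encodes RING1B, was at 44.2 CPM for RS4;11 and 40.3 CPM for SEM, against 35.3 CPM for NALM6 and 43.5 CPM for REH. The RING1 groups did not overlap (log2 fold change -0.26, SE 0.20, edgeR adjusted p = 0.654), whereas RNF2 in REH lay between the translocated lines (0.20, SE 0.23, edgeR adjusted p = 0.762). The RNF2 value was 0.061 without NALM6, 0.36 without REH and 0.10 with library sums alone. The deposited Cuffdiff table places RING1 on an alternative haplotype sequence of chromosome 6 (6_qbl_hap6, 4408513 to 4412726), a near-identical copy of the reference, so its level is uncertain. RNF2 lies on chromosome 1 (185014551 to 185071740).

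BMI1, the PCGF subunit first known as a partner of MYC in lymphoma, differed most of the 10 members between the translocated lines (2.12-fold). RS4;11 held 6.998 CPM (363 counts) and SEM 3.302 CPM (111 counts), while NALM6 held 10.5 CPM (469 counts) and REH 5.33 CPM (449 counts). The groups overlapped, and the log2 fold change was -0.51 with an SE of 0.71 (adjusted p = 0.805 in edgeR) and became 0.056 without NALM6. The count of BMI1 was low beside its length-scaled level. The authors' deposited Cuffdiff table gives it 21.2 FPKM in the translocated group and 27.5 FPKM in the other group, near the values of CBX2 (20.2 and 29.03 FPKM), although CBX2 had about 75.9 and 114 CPM.

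The quotient of mean CPM and FPKM shows this directly, since it grows with the length of a transcript. For BMI1 it was 0.243 in the translocated group and 0.287 in the other group. For the other 9 members it lay between 1.37 (CBX8) and 4.47 (EZH1) in the translocated group, and the median over 13252 genes was 2.60 there and 2.79 in the other group. In the translocated group 0.898% of these genes had a lower quotient than BMI1. BMI1 lies on chromosome 10 in a locus (22605312 to 22620414) that Cuffdiff assigned also to COMMD3 and to the readthrough gene COMMD3-BMI1. The readthrough gene had 2 counts in RS4;11, 0 in SEM, 3 in NALM6 and 2 in REH, yet 10.1 FPKM in the translocated group and 9.07 FPKM in the other group in the authors' deposited Cuffdiff table. In GENCODE v29, 1000 of 4283 exonic bases of BMI1 also belong to COMMD3-BMI1. No source used here gives the annotation or overlap setting behind the HTSeq counts, and their part in the low count was not tested.

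**Figure D2:**
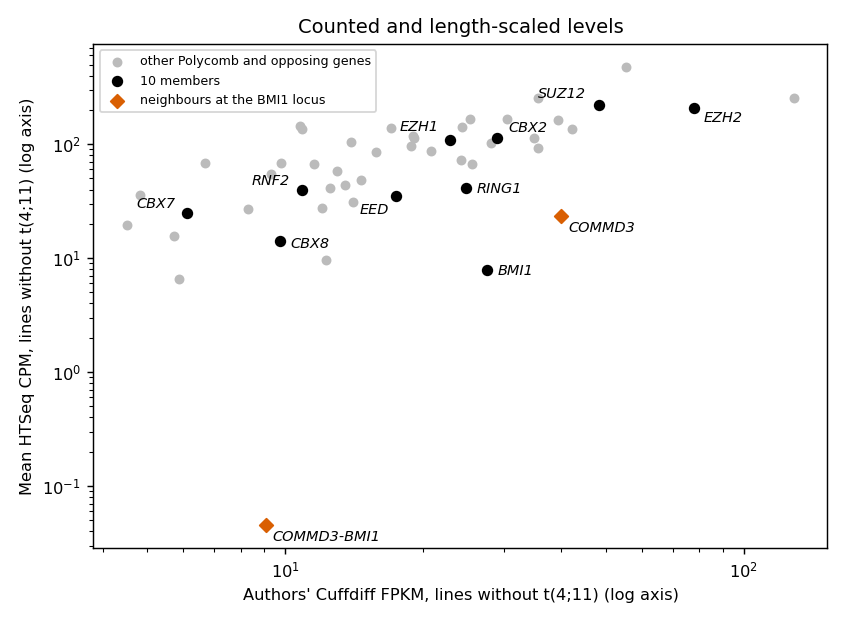
Mean CPM from the HTSeq counts (log axis) against the authors' Cuffdiff FPKM (log axis) in the non-translocated lines, with 1 point per gene. The 10 members are black, other Polycomb and opposing genes that Cuffdiff tested are grey, and the neighbours at the BMI1 locus are orange. BMI1 (7.89 CPM, 27.5 FPKM) lies well below CBX2 and RING1, members of similar FPKM, and COMMD3-BMI1 lies lowest of the genes drawn.

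On the FPKM scale, which allows levels to be compared between genes, the order was alike in both groups at its ends. In the authors' deposited Cuffdiff table EZH2 was highest (69.7 FPKM in the translocated group and 78.2 FPKM in the other) and SUZ12 next (60.5 and 48.4 FPKM). RNF2 (12.5 and 10.9 FPKM), CBX8 (6.79 and 9.73 FPKM) and CBX7 (2.49 and 6.12 FPKM) were the lowest 3 in both. Between them EED ranked 3 of 10 in the translocated group, at 26.997 FPKM, and 7 of 10 in the other group, at 17.5 FPKM. EZH1 had 16.2 and 22.9 FPKM and RING1 20.6 and 24.8 FPKM. These are group values without a spread, so neighbours in the order, such as BMI1, CBX2 and RING1, cannot be separated. The places of BMI1 and RING1 are also uncertain, BMI1 because its counts were low beside its FPKM and RING1 because of its alternative haplotype sequence.

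The 3 methods gave nearly the same sizes of difference for members other than BMI1. For EED the log2 fold change, turned to translocated over non-translocated, was 0.62 in the authors' deposited DESeq table (p = 0.250) and 0.63 in their deposited Cuffdiff table (q = 0.869). For CBX7 it was -1.29 in the authors' deposited DESeq table (p = 0.118) and -1.30 in their deposited Cuffdiff table (q = 0.698). BMI1 had -0.51 in the authors' deposited DESeq table and -0.38 in their deposited Cuffdiff table. The adjusted p of every member was 1 in the authors' deposited DESeq table.

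**Figure D3:**
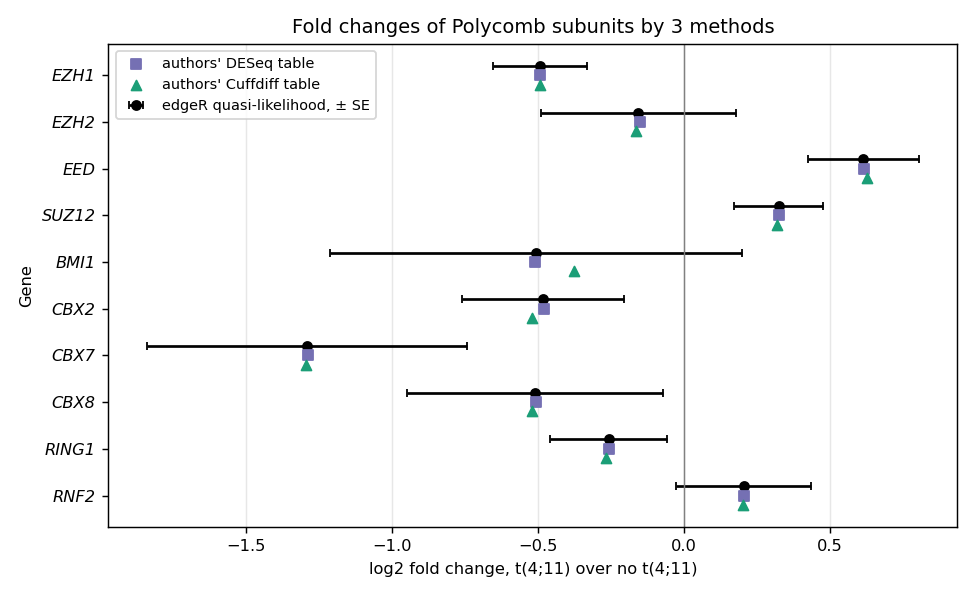
log2 fold change of each member, translocated over non-translocated, from edgeR's quasi-likelihood fit (circles, bars ± SE) and from the authors' DESeq (squares) and Cuffdiff (triangles) tables. The methods lie close together for members other than BMI1 (-0.51 from counts and -0.38 from Cuffdiff), and the bars of EZH2, BMI1 and RNF2 cross 0.

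Alternative subunits can replace one another in a complex, and their ratio within a library is free of library size. The ratio of EZH2 to EZH1 counts was 2.36 and 2.46 in the translocated lines, against 1.42 and 2.37 in the non-translocated lines. REH lay between the translocated lines and NALM6 stood apart. The ratio of RNF2 to RING1 counts was 1.40 and 1.24 in the translocated lines, against 0.833 and 1.08 in the non-translocated lines. The ratio of CBX8 to CBX7 counts was 0.981 and 0.979 in the translocated lines, against 0.761 and 0.486 in the non-translocated lines. The groups did not overlap for these last pairs.

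The mean log2 ratios differed, translocated minus non-translocated, by 0.40 for EZH2 to EZH1, 0.47 for RNF2 to RING1 and 0.69 for CBX8 to CBX7. The exact permutation test over lines, two-sided, gave p = 0.667, 0.333 and 0.333 (adjusted over the 3 pairs by Benjamini-Hochberg, 0.667, 0.500 and 0.500). With 2 lines against 2 the smallest p this test allows is 0.333. Without NALM6 the difference for EZH2 to EZH1 was 0.025.

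**Figure D4:**
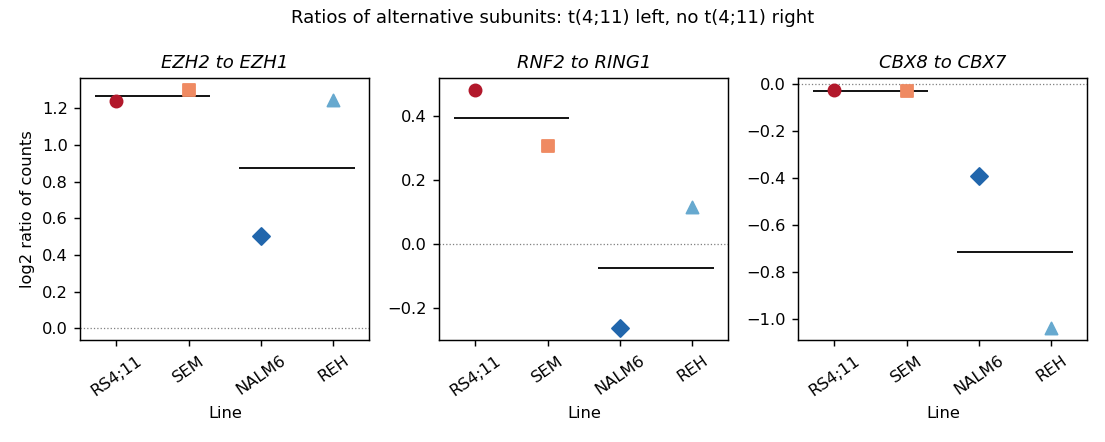
log2 ratio of the counts of alternative Polycomb subunits in each line, with the group means as horizontal bars and the translocated lines to the left of each panel. RS4;11 and SEM nearly coincide for EZH2 to EZH1 and for CBX8 to CBX7, while NALM6 and REH are far apart.

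The median size of the log2 ratio of RS4;11 to SEM was 0.08 over the 10 members and 0.37 over all genes tested, and that of REH to NALM6 was 0.42 over the members and 0.50 over all genes. The level in RS4;11 was between 0.965 (EED) and 1.01 (EZH1) of that in SEM for EZH1, EZH2, EED, SUZ12 and RING1. It was 0.926 for CBX2, 1.10 for RNF2, 1.18 for CBX7, 1.18 for CBX8 and 2.12 for BMI1. REH exceeded NALM6 by 1.77-fold for EZH2, 1.53-fold for CBX2, 1.45-fold for CBX8 and 2.27-fold for CBX7, while BMI1 in REH was at 0.510 of its level in NALM6. The median log2 fold change was -0.37 over the members, 0.08 over the 4 PRC2 genes, -0.49 over the 6 PRC1 genes and -0.02 over all genes. The PRC1 median covers these 6 genes only. Among the further genes below it was 0.07 over 9 subunits of variant PRC1 and -0.41 over 5 PCGF subunits. Without REH the values of CBX2, CBX7 and CBX8 were -0.15, -0.59 and -0.22. Scaling by library sums alone moved the median over all genes to -0.12. The CPM given here use library sums and are not corrected for that shift.

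CBX7 had the widest range over the lines, and the genes whose centred log2(CPM + 1) lay nearest to it over the 4 lines were HLA-J (distance 0.0876), DMXL2 (0.106) and NSUN7 (0.117). DMXL2 had 41.3 and 34.6 CPM in the translocated lines, against 64.2 and 129 CPM in the non-translocated lines. HLA-J had 0.675 and 0.535 CPM, against 1.58 and 4.35 CPM, and NSUN7 had 0.0386 and 0 CPM, against 0.580 and 2.40 CPM. At such low levels the distance depends on the pseudocount. The likeness rests on 4 lines and 13843 genes compared, and of these 3 genes DMXL2 alone was again among the nearest 3 with a pseudocount of 0.1 CPM.

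Beyond the members, 39 further genes of the pathway were examined by role, 31 other subunits and 8 enzymes or cofactors that remove the Polycomb marks. All 39 passed the filter on low counts. EdgeR's quasi-likelihood test called 0 of them, with 5 at an unadjusted p under 0.05 (2 higher, 3 lower, against 12.0% of all genes). The exact test of edgeR called 0 of the 39 (against 3.19% of all genes). Limma voom also called 0 of the 39, and 0 of all genes. DESeq2 called 3 of the 39 (against 10.1% of all genes), and the deposited tables of the authors called 0. In CPM, 3 were higher and 11 lower in both translocated lines than in both non-translocated lines, 35.9% of the list together against 47.3% of all genes (19.0% higher, 28.3% lower). With TMM scaling 7 were higher and 8 lower, against 24.2% and 23.4% of all genes. RBBP4, AEBP2 and KDM2B were then no longer among the lower ones, and PCGF5, PHC2, MGA and ASXL2 joined the higher ones. Their median log2 fold change was 0.02.

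Only BCORL1, KDM6A and C17orf96 combined groups that did not overlap with a log2 fold change of at least 1 in size. BCORL1, a corepressor of variant PRC1, had 10.2 and 10.7 CPM in the translocated lines, against 40.2 and 31.6 CPM in the non-translocated lines. Its log2 fold change was -1.68 (SE 0.29, edgeR adjusted p = 0.310), and DESeq2's adjusted p was 4.28e-06 (4.28e-06 to 0.918 over the alternatives). KDM6A, an H3K27 demethylase on the X chromosome that takes the PRC2 mark away, had 104.4 and 103.9 CPM in the translocated lines, against 48.6 and 62.0 CPM in the non-translocated lines. Its log2 fold change was 1.01 (SE 0.21, edgeR adjusted p = 0.326), and DESeq2's adjusted p was 0.00133 (0.00133 to 0.920 over the alternatives). C17orf96, now named EPOP, an accessory subunit of PRC2, had 10.5 and 8.001 CPM in the translocated lines, against 15.5 and 38.5 CPM in the non-translocated lines (log2 fold change -1.44 with an SE of 0.59, adjusted p = 0.461 in edgeR). Its log2 fold change was -0.65 with REH left out.

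KDM6B and USP16 were picked from the list after their values were seen. KDM6B, the second H3K27 demethylase, differed in the opposite direction from KDM6A, with 33.9 and 32.4 CPM in the translocated lines, against 49.1 and 87.8 CPM in the non-translocated lines (log2 fold change -0.95, SE 0.36, edgeR adjusted p = 0.440). USP16, which removes ubiquitin from H2A, had 114 and 116 CPM in the translocated lines, against 77.4 and 68.1 CPM in the non-translocated lines (log2 fold change 0.77, SE 0.17, edgeR adjusted p = 0.336), and was the remaining DESeq2 call (adjusted p = 0.00104).

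SCML1, PCGF2 and JARID2, also picked after their values were seen, differed widely between lines of the same group. SCML1, an X-linked member of the SCM family of PRC1 proteins, had 0.0578 CPM (3 counts) in RS4;11 but 42.4 CPM in SEM, and 31.1 CPM in NALM6 but 0 counts in REH, where 3 counts would be 0.0356 CPM. PCGF2, also called MEL18 and a close relative of BMI1, had 0.289 and 8.12 CPM in the translocated lines, against 2.79 and 10.4 CPM in the non-translocated lines. JARID2, which recruits PRC2, had 226 and 121 CPM in the translocated lines, against 149 and 75.4 CPM in the non-translocated lines. The groups overlapped for all 3 genes.

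Of 13 textbook targets of Polycomb repression, 6 stayed below 1 CPM in all 4 lines, and 3 of these had 0 counts in all 4. Only 4 of the 13 passed the filter on low counts, and edgeR's quasi-likelihood test called 0 of them. At an unadjusted p under 0.05 it gave 2 (GATA6 higher and CDKN1C lower), where 12.0% of all genes had such a p. GATA6 passed the filter only through the translocated lines, where it was higher, so its place among the 2 is no support for a difference. CDKN1C, a cell cycle inhibitor gene, had 0.231 and 0.208 CPM in the translocated lines, against 0.870 and 3.24 CPM in the non-translocated lines (log2 fold change -3.11, SE 0.98, edgeR adjusted p = 0.399). CDKN2A, the cell cycle inhibitor locus on chromosome 9 that BMI1 and EZH2 are known to repress, had 98.2 CPM in SEM and 0 counts in RS4;11, against 2 counts in NALM6 and 0 in REH. Its neighbour CDKN2B had 45 counts in SEM and 0 in the other 3 lines. Copy number of the locus was not measured. WT1 was present in all lines (26.1 and 13.9 CPM in the translocated lines, against 12.5 and 39.7 CPM in the non-translocated lines), and PAX6 had 39.4 CPM in SEM and between 3.03 and 4.16 CPM in the other 3. The authors' deposited Cuffdiff table called GATA6 and NEUROG2 (q = 0.00418 each), where 2.34% of all genes it tested were called. Their deposited DESeq table called 0 of the 13 targets, where 1.56% of all genes were called. GATA6 had 51 and 48 counts in the translocated lines and 0 in both non-translocated lines, and NEUROG2 had 386 counts in REH and 0 in the other 3.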

How the data were processed

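RNA was sequenced from RS4;11 and SEM (t(4;11)) and from NALM6 and REH (no t(4;11)), 1 library per line, grouped by the labels. Per the submitters' processing notes, CASAVA 1.8.2, TopHat2 2.0.4, TopHat, HTSeq, DESeq, Cuffdiff and hg19 were used, with roles, settings and annotation not given in these sources. The TruSeq RNA kit named in the labels' protocols does not mark strand. One deposited table gives, for each gene, HTSeq counts, the authors' DESeq normalized counts (a signal obtained from the counts by size factors, and not tested here), a fold change as the ratio of control to t(4;11), and DESeq p-values. The other deposited table, from Cuffdiff per the file headers, gives group FPKM, log2 of control to t(4;11), a score (the test statistic), p-values and q-values. Signs were turned to t(4;11) over no t(4;11), and Cuffdiff loci are given with the start counted from 1.

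CPM used library sums. Genes were tested with edgeR 4.0.16 in R 4.3.3 (TMM, filterByExpr, glmQLFit and glmQLFTest, two-sided) over 13844 genes, with Benjamini-Hochberg adjustment at 0.05 and 2 residual degrees of freedom. The standard error is the log2 fold change divided by the root of F. DESeq2 1.42.0, the exact test of edgeR, limma 3.58.1 voom, other scalings and filters, and leaving out each line were alternatives. Tests were also run on simulated counts, with less spread between replicates than in these lines and larger changes than any member showed. That run cannot tell how often the tests find or miss changes of the size seen here. Of the other Polycomb genes, those whose groups did not overlap with a log2 fold change of at least 1 in size, or that a deposited table called, were named, as were the 3 genes nearest by Euclidean distance to the member of widest range. Of the target, cell cycle and marker lists, counts, summed levels and genes of high level are given, and further genes were named after their values were seen. Single genes of the lists that are not named are not reported here. Members and lists were chosen with earlier results of these data known. No replicate numbers or batches are in the labels, and since reads carry no molecular identifiers, floors of 3 counts cover counting error only. Figures were drawn with matplotlib 3.10.9.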

Additional observations from a re-analysis of the deposited data

How the results depend on the processing

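No paired analysis was possible because the labels give the lines no shared replicate numbers. With 2 lines a group, the number of all genes called by edgeR's quasi-likelihood test, 0, became 5 with no filter on low counts, 4 with a filter of 1 CPM in 2 lines and 7 at an adjusted p under 0.1; it was 441 with edgeR's exact test and 1349 with DESeq2. The number of members called, 0, became 2 with DESeq2 (EED and EZH1), and that of the other Polycomb genes, 0, became 3 (BCORL1, KDM6A and USP16). The counts over all genes, members and other Polycomb genes were 0 to 0 with each line left out, where the lone line of a group is assumed to vary like the pair. Of the 10 members, 8 kept the sign of the log2 fold change under all 11 alternatives; EZH2 turned to 0.31 without REH and BMI1 to 0.056 without NALM6. With each line left out, EZH2 ranged from -0.51 to 0.31 and BMI1 from -1.16 to 0.056. In the same way, the log2 ratio differences ranged from 0.025 to 0.77 for EZH2 to EZH1, from 0.28 to 0.66 for RNF2 to RING1 and from 0.36 to 1.01 for CBX8 to CBX7. The 7 members whose groups did not overlap were the same with TMM and RLE scaling. The cause of these differences was not tested. The fewest counts of any member were the 111 of BMI1 in SEM.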
